A study of Mus musculus with 16 samples.

Results

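The small leucine-rich proteoglycans described here are 9 genes, Prelp, Fmod, Dcn, Bgn, Lum, Ogn, Omd, Aspn and Podn, taken by name from the 43432 genes counted in each library. They were listed with their levels in these libraries already known, so their levels and differences are given as a description, without tests. All 9 were found, and 8 of them passed the filter on low counts, which kept 19617 genes. Omd did not pass it, with 31, 16, 10 and 9 reads over the 4 libraries of each population.

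Small leucine-rich proteoglycans are secreted proteins whose core is a curved stack of leucine-rich repeats. Many carry chains of chondroitin or dermatan sulfate (decorin, biglycan) or keratan sulfate (fibromodulin, lumican), and most bind collagen fibrils and set how these assemble. Several also bind growth factors of the TGF-beta family. In the thymus, as in other organs, fibroblasts and other mesenchymal cells are their best known source, while medullary thymic epithelial cells (mTEC) are known for transcribing small amounts of many genes typical of other tissues.

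RNA was sequenced from mTEC of C57BL6 mice carrying Aire-CreERT2 and Ai14, a reporter that turns on a red fluorescent protein (RFP) for good once Cre has acted. All mice, of mixed sex and 5 to 6 weeks old, had received 2 mg tamoxifen, and thymi were taken 7 days later. RFP therefore marks cells in which Aire drove Cre during the pulse, and their progeny, and a cell that made Aire only at another time is RFP-. Live CD45- EPCAM+ cells were sorted into 4 populations. Those with high MHC class II gave RFP- MHCIIhi and RFP+ MHCIIhi, and those with low MHC class II gave RFP- MHCIIlo and RFP+ MHCIIlo, with 4 libraries for each, every library from 12 pooled thymi. All 4 populations share the tamoxifen treatment and both alleles, and mice without them were not analysed here.

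The 16 libraries held 7.93 to 19.46 M counted reads. For RFP+ MHCIIlo only 19400 to 20500 cells were sorted per library, against at least 80500 for the others, and its libraries correlated less with each other (r of log2 CPM 0.9495 to 0.9674) than RFP- MHCIIhi libraries did (0.9869 to 0.9905). Epcam was at 322 to 622 normalised counts per M reads (CPM, where M is mega) in every library. Aire was at 979 ± 56.1 CPM (SD, n = 4) in RFP- MHCIIhi, 587 ± 32.5 in RFP+ MHCIIhi, 37.9 ± 23.5 in RFP- MHCIIlo and 50.8 ± 25.4 in RFP+ MHCIIlo. CPM are scaled counts that do not account for gene length, and differences are log2 differences from a fit of all 16 libraries. Their standard error (SE) was derived from each difference and its quasi-likelihood F statistic.

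The 250 bases before the RefSeq start (build GRCm38.p6) are shown for 4 of the genes, Prelp and Fmod because their levels followed each other most closely, and Ogn and Aspn because these neighbours on chromosome 13 went opposite ways between the RFP- populations. Sequences run 5' to 3' on the gene's strand, and the Prelp window was shortened to 237 bases so as to hold no exon base. Capitals mark matches on either strand to the core of the TATA box (TATAAA), to the GC box (GGGCGG), to the box named after its letters CCAAT, or to the AP-1 motif (TGANTCA).
Prelp, chr1:133921415-133921651, minus strand: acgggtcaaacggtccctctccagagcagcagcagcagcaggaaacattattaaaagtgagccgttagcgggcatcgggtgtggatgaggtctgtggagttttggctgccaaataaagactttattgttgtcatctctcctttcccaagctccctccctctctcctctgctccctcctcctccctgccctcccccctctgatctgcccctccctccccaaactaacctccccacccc
Fmod, chr1:134037004-134037253, plus strand: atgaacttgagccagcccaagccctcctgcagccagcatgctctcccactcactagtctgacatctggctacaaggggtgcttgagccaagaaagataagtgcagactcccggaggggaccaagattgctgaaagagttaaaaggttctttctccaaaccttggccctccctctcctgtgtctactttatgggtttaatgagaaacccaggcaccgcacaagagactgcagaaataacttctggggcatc
Ogn, chr13:49607765-49608014, plus strand: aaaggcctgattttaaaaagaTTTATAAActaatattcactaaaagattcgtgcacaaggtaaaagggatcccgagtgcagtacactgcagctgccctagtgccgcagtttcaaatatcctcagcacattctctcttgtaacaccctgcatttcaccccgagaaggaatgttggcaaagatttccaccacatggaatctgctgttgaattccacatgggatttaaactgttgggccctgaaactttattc
Aspn, chr13:49544193-49544442, plus strand: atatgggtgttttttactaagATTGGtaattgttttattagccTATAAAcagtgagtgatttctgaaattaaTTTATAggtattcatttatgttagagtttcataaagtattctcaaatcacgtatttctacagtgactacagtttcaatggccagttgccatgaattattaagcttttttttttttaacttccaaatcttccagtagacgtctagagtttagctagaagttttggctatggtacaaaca
The Prelp and Fmod windows held none of these letters. In the Ogn window TATAAA was found on each strand, in matches that overlap each other and begin 229 and 227 bases before the start. GENCODE M21 places the start of Ogn at 49608046, beyond the RefSeq start, so these distances hold for the RefSeq start only. The Aspn window held TATAAA at 207 and 178 bases and CCAAT at 229 bases before the start. Of 32851 promoter windows of 250 bases, 12.37% held TATAAA, 32.74% GGGCGG, 33.85% CCAAT and 6.75% TGANTCA. The G and C content was 56.5% for Prelp, 51.2% for Fmod, 42.0% for Ogn and 30.0% for Aspn, beside a median of 52.4% over all windows. Of the 9 genes, 7 had a promoter entry.

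Prelp encodes a basic, proline- and arginine-rich member that binds collagen and heparan sulfate and is placed where basement membranes meet connective tissue. Its levels in RFP- MHCIIlo replicates 1 to 4 were 113, 144, 124 and 169 CPM. In RFP- MHCIIhi they were 19.3, 16.7, 12.4 and 17.2 CPM, in RFP+ MHCIIhi 7.17, 6.71, 6.26 and 6.53 CPM, and in RFP+ MHCIIlo 3.35, 3.41, 6.34 and 4.31 CPM. The 4 RFP- MHCIIlo libraries thus lay far above the other 12, RFP- MHCIIhi lay above both RFP+ populations, and the RFP+ populations overlapped. RFP+ MHCIIlo was 31.3-fold below RFP- MHCIIlo (log2 difference -4.97, SE 0.17), and RFP- MHCIIlo was 8.31-fold above RFP- MHCIIhi (3.05, SE 0.14). In these sorted populations, fewer cells of a type and less RNA per cell cannot be told apart.

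Fmod, which encodes fibromodulin, a keratan sulfate proteoglycan of collagen fibrils, had the same order of populations at lower levels. RFP- MHCIIlo libraries held 54.5, 63.6, 60.3 and 77.8 CPM and RFP- MHCIIhi libraries 5.24, 4.32, 3.99 and 5.74 CPM. RFP+ MHCIIhi libraries held 3.51, 1.63, 2.41 and 2.53 CPM and RFP+ MHCIIlo libraries 1.73, 1.95, 3.32 and 2.24 CPM. As for Prelp, RFP- MHCIIlo replicate 4 was the highest library, and only the RFP+ populations overlapped. The log2 difference of RFP+ MHCIIlo from RFP- MHCIIlo was -4.78 (SE 0.19), and that of RFP- MHCIIlo from RFP- MHCIIhi was 3.72 (SE 0.17), 13.1-fold.

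Dcn encodes decorin, which binds collagen and TGF-beta, and had the highest level per kb of exon of the 9 genes in every population. Its RFP- MHCIIlo libraries held 342, 249, 550.0 and 362 CPM. RFP- MHCIIhi libraries held 51.8, 52.7, 50.04 and 47.4 CPM and RFP+ MHCIIhi libraries 44.0, 48.5, 47.1 and 49.5 CPM, so these 2 populations overlapped. RFP+ MHCIIlo libraries held 19.9, 22.9, 41.0 and 45.8 CPM, and replicate 4 lay within the RFP+ MHCIIhi range. RFP+ MHCIIlo was 11.5-fold below RFP- MHCIIlo (log2 difference -3.52, SE 0.22). Unlike Prelp and Fmod, Dcn was highest in RFP- MHCIIlo replicate 3 and lowest in replicate 2.

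Bgn encodes biglycan, the closest relative of decorin and a known ligand of the receptors Tlr2 and Tlr4. The RFP- MHCIIlo values were 48.2, 44.1, 63.1 and 37.8 CPM, RFP- MHCIIhi libraries 33.5, 31.9, 33.1 and 29.9 CPM, RFP+ MHCIIhi libraries 25.3, 20.5, 21.1 and 26.7 CPM, and RFP+ MHCIIlo libraries 4.00, 5.85, 13.5 and 15.6 CPM. No 2 populations overlapped, and the order ran from RFP- MHCIIlo down to RFP+ MHCIIlo. Bgn was the only one of the 8 fitted genes to lie in opposite directions across the MHC class II gate without overlap, 0.59 (SE 0.21) higher in MHCIIlo among RFP- cells and -1.22 (SE 0.24) among RFP+ cells on the log2 scale.

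**Figure D1:**
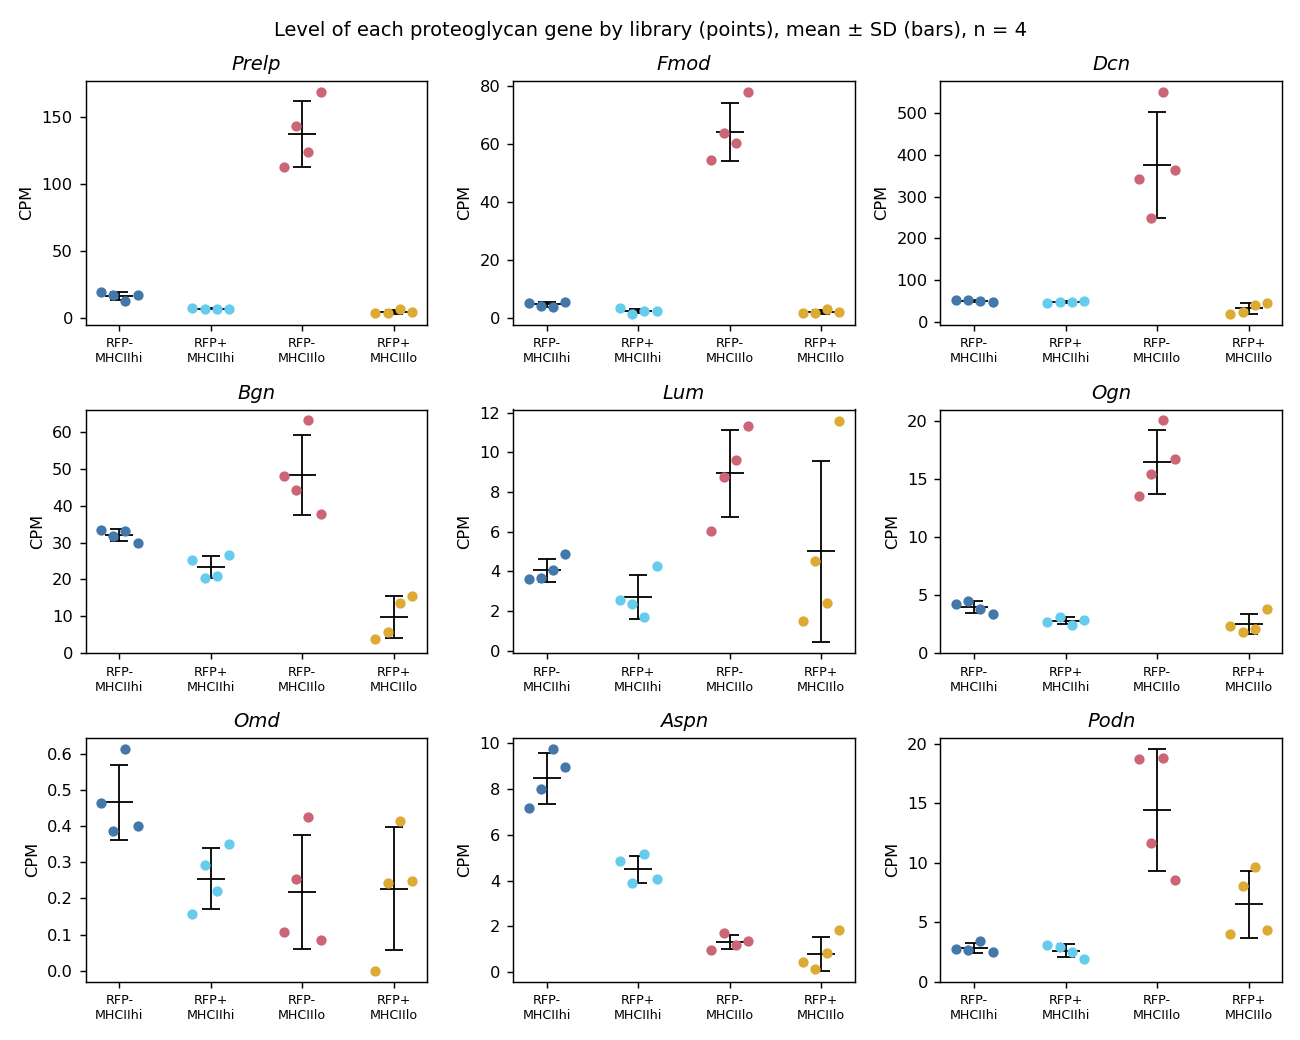
Level of each gene in CPM (vertical axes, linear and on different scales) in each of the 16 libraries (points), with the mean and SD of the 4 libraries of a population (bars). Prelp, Fmod, Dcn and Ogn are far higher in the 4 RFP- MHCIIlo libraries than in the others, Aspn is highest in RFP- MHCIIhi, and Lum is split in RFP+ MHCIIlo, from 1.51 to 11.6 CPM.

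Ogn, which encodes osteoglycin (mimecan), another fibril-associated member, was like Dcn highest in RFP- MHCIIlo, at a lower level. Unlike for Dcn, RFP- MHCIIhi lay above RFP+ MHCIIhi without overlap. In RFP- MHCIIlo it was at 13.5, 15.4, 20.0 and 16.7 CPM, in RFP- MHCIIhi at 4.22, 4.52, 3.84 and 3.39 CPM, in RFP+ MHCIIhi at 2.73, 3.15, 2.41 and 2.88 CPM, and in RFP+ MHCIIlo at 2.38, 1.83, 2.08 and 3.81 CPM. RFP- MHCIIlo stood above all other libraries, and replicate 3 was again its highest. The log2 difference of RFP+ MHCIIlo from RFP- MHCIIlo was -2.66 (SE 0.20).

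Podn encodes podocan, a collagen-binding member first described in the kidney glomerulus, and was the only fitted gene above RFP+ MHCIIhi in RFP+ MHCIIlo without overlap. RFP- MHCIIlo libraries held 18.7, 11.7, 18.9 and 8.52 CPM and RFP+ MHCIIlo libraries 4.00, 8.05, 9.66 and 4.31 CPM, which overlapped through RFP- MHCIIlo replicate 4 and RFP+ MHCIIlo replicate 3. RFP- MHCIIhi libraries held 2.74, 2.65, 3.45 and 2.53 CPM and RFP+ MHCIIhi libraries 3.12, 2.92, 2.52 and 1.90 CPM, below every MHCIIlo library. Podn was 2.35 (SE 0.27) higher on the log2 scale in MHCIIlo than in MHCIIhi among RFP- cells and 1.30 (SE 0.29) higher among RFP+ cells.

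Lum encodes lumican, the keratan sulfate proteoglycan that keeps collagen fibrils evenly spaced in the cornea, and its order depended on a single library. RFP- MHCIIlo libraries held 6.06, 8.74, 9.64 and 11.4 CPM, RFP- MHCIIhi libraries 3.62, 3.68, 4.07 and 4.88 CPM, and RFP+ MHCIIhi libraries 2.57, 2.33, 1.70 and 4.28 CPM. RFP+ MHCIIlo libraries held 1.51, 4.51, 2.39 and 11.6 CPM, so replicate 4 was above every RFP- MHCIIlo library and the other 3 were below them all. The log2 difference of RFP+ MHCIIlo from RFP- MHCIIlo was -0.80 (SE 0.38) with all libraries and -1.70 without RFP+ MHCIIlo replicate 4. Its difference from RFP+ MHCIIhi went from 0.94 to 0.04 when that library was left out.

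Aspn encodes asporin, a relative of decorin that carries a stretch of aspartates and binds TGF-beta and collagen. Of the 8 fitted genes it alone was lower in RFP- MHCIIlo than in RFP- MHCIIhi, while between RFP+ and RFP- cells its differences were negative in both gates, as for the other 7. It was highest in RFP- MHCIIhi, at 7.19, 8.002, 9.75 and 8.96 CPM, followed by RFP+ MHCIIhi, at 4.83, 3.91, 5.16 and 4.07 CPM. In the RFP- MHCIIlo libraries Aspn was at 0.957, 1.70, 1.19 and 1.38 CPM and in those of RFP+ MHCIIlo at 0.432, 0.122, 0.831 and 1.82 CPM, the lowest of these from 1 read and the highest from 22. Every MHCIIhi library was above every MHCIIlo library, and the MHCIIlo populations overlapped. Aspn was 6.37-fold lower in RFP- MHCIIlo than in RFP- MHCIIhi (log2 difference -2.67, SE 0.30). Between the MHCIIlo populations its difference was -0.59 (SE 0.41), and -1.45 without RFP+ MHCIIlo replicate 4. From RFP+ MHCIIhi, RFP+ MHCIIlo differed by -2.35 (SE 0.34), and by -3.21 without that library.

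Omd, encoding osteomodulin of bone, was near the limit of detection, at 0.467 ± 0.104 CPM in RFP- MHCIIhi (SD, n = 4), 0.255 ± 0.0849 in RFP+ MHCIIhi, 0.218 ± 0.158 in RFP- MHCIIlo and 0.227 ± 0.171 in RFP+ MHCIIlo. In RFP+ MHCIIlo replicate 1 no read was counted.

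Counted over the 8 fitted genes, 5 had a lower level in RFP+ MHCIIlo, with no overlap with the RFP- MHCIIlo libraries (Prelp, Fmod, Dcn, Ogn and Bgn). Over all genes tested, 18.0% were lower and 21.5% higher in the same way. The median log2 difference of the 8 genes was -2.47, beside 0.07 for all genes. For RFP+ MHCIIhi against RFP- MHCIIhi, 5 genes were lower without overlap (Prelp by a log2 difference of -1.31, SE 0.16, Fmod, Aspn, Ogn and Bgn), where 25.0% of all genes were lower, and the medians were -0.55 and -0.02. Since these genes were chosen on these libraries, the counts describe them and are no evidence about them.

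Across the MHC class II gate, 7 of the 8 genes were higher and Aspn was lower in RFP- MHCIIlo than in RFP- MHCIIhi without overlap, where 31.2% of all genes were higher and 34.1% lower. The median log2 difference was 2.19. Among RFP+ cells the same gate gave 1 gene higher (Podn) and 2 lower (Bgn and Aspn) without overlap, with 22.5% of all genes higher and 24.5% lower, and a median of -0.32. Prelp, Fmod, Dcn, Lum and Ogn, whose log2 differences were 3.05, 3.72, 2.90, 1.15 and 2.04 among RFP- cells, had differences of -0.60, -0.09, -0.53, 0.94 and -0.11 among RFP+ cells, with overlapping libraries. The 4 comparisons share populations with each other, so they are set side by side and not correlated.

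**Figure D2:**
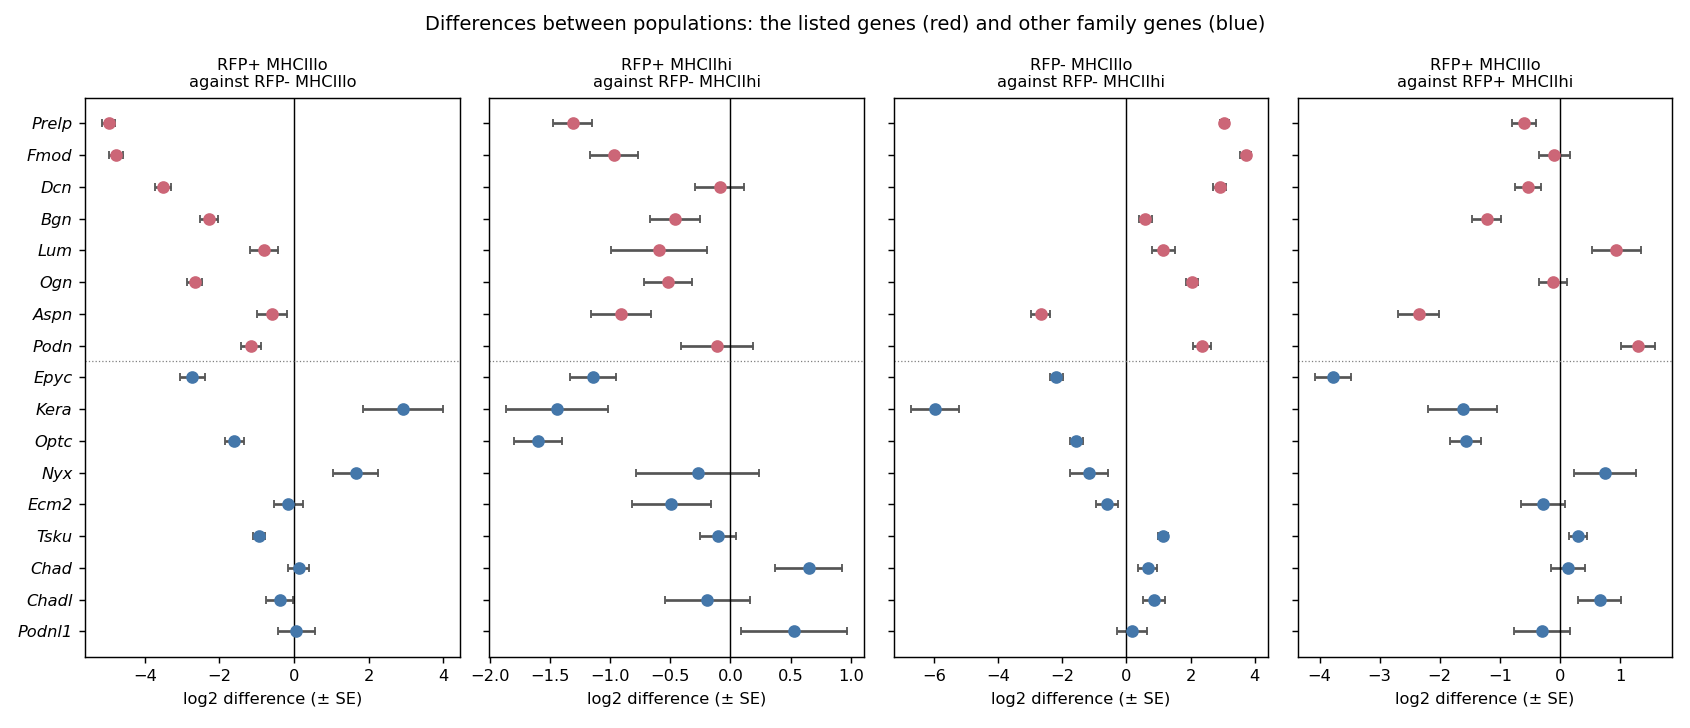
Log2 difference (horizontal axis, points) with its SE (bars) for the 8 fitted genes (red, above the dotted line) and 9 other genes of the family (blue), in 4 comparisons with horizontal axes of different range. In RFP+ MHCIIlo against RFP- MHCIIlo the 8 genes lie between -4.97 and -0.59, while the other family genes lie on both sides of 0.

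Expressed per kb of exon, so that genes can be compared, the 9 genes summed to 144 ± 24.2 CPM per kb in RFP- MHCIIlo (SD, n = 4), 27.6 ± 0.545 in RFP- MHCIIhi, 19.4 ± 0.994 in RFP+ MHCIIhi and 14.0 ± 5.49 in RFP+ MHCIIlo. Their make-up differed as well as their sum. Dcn took 44.0 ± 8.18% of the sum in RFP- MHCIIlo, Prelp 26.9 ± 5.88%, Fmod 13.7 ± 2.45% and Bgn 5.54 ± 0.996%. In RFP- MHCIIhi the shares were 31.3 ± 1.27% for Dcn, 19.1 ± 0.912% for Bgn, 16.4 ± 2.62% for Prelp and 13.1 ± 1.96% for Aspn. Aspn, the fourth largest share there, made up 0.397 ± 0.135% in RFP- MHCIIlo. In RFP+ MHCIIlo, Dcn held 39.5 ± 3.11%, Lum 13.4 ± 8.14%, Podn 11.8 ± 5.12%, Bgn 10.7 ± 2.68% and Prelp 9.08 ± 2.45%. The share of Lum ran from 5.88 to 23.3% over its libraries, the widest range of any of the 9 genes in that population.

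**Figure D3:**
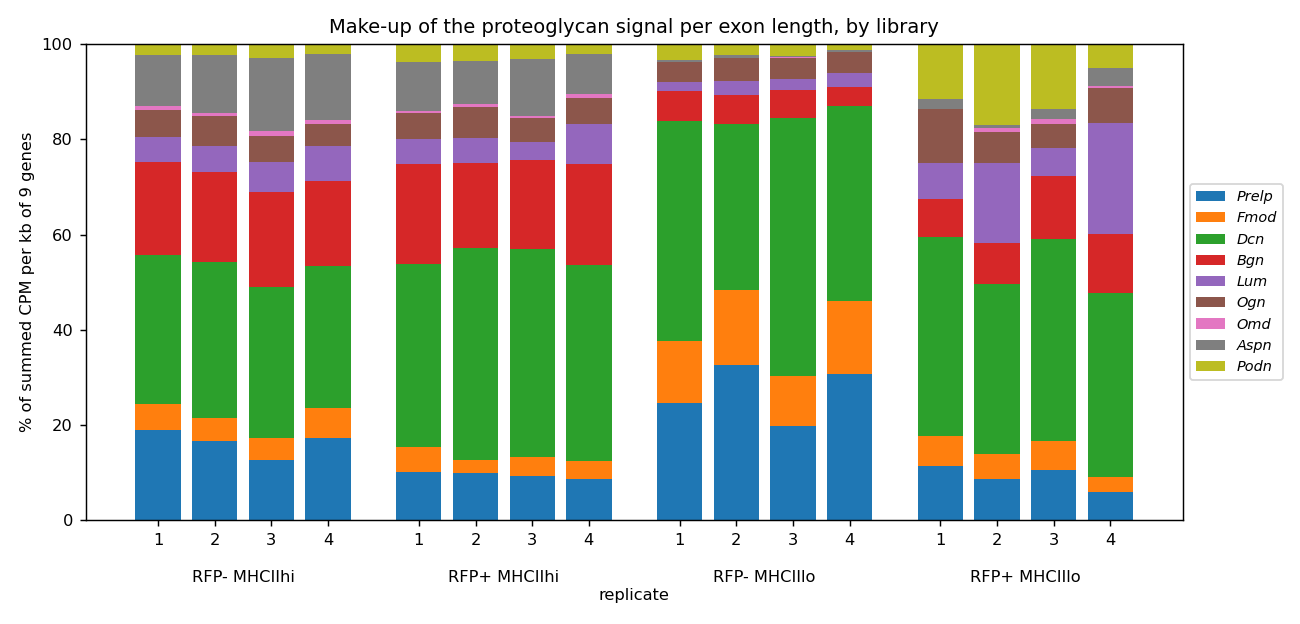
Share of each gene in the summed CPM per kb of exon of the 9 genes (vertical axis, %) in each library (bars, numbered by replicate). Prelp and Fmod take a larger part of the bar in RFP- MHCIIlo than elsewhere, and the share of Aspn in the MHCIIhi libraries is nearly gone in RFP- MHCIIlo, at 0.397%.

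Many genes of the family sit beside each other, which allows neighbours to be compared (positions from GENCODE M21 on GRCm38, where all are protein-coding). On chromosome 1, Optc (opticin, of the eye) spans 133897199 to 133907999, Prelp 133910304 to 133921414 and Fmod 134037254 to 134048277. Optc ends 2.305 kb from Prelp, yet it was lower in RFP- MHCIIlo than in RFP- MHCIIhi, at 4.50 ± 0.165 and 13.3 ± 1.85 CPM (n = 4 each, log2 difference -1.56, edgeR adjusted p = 3.3e-07), where Prelp and Fmod were higher. On chromosome 10, Dcn (97479609 to 97518143), Lum (97565128 to 97572703), Kera (97606879 to 97613692) and Epyc (97644068 to 97682454) follow each other on the plus strand. Epyc, which encodes epiphycan of growth cartilage, fell from 17.3 ± 1.11 to 3.79 ± 0.662 CPM between the same populations (log2 difference -2.19, edgeR adjusted p = 2.6e-09). Kera, encoding the corneal keratocan, had 230 reads over the RFP- MHCIIhi libraries and 2 over those of RFP- MHCIIlo. On chromosome 13, Ecm2 (49504810 to 49532789), Aspn (49544443 to 49567565), Omd (49582462 to 49592822) and Ogn (49608046 to 49624501) share the plus strand, and Aspn and Ogn lay on opposite sides of 0 in this comparison. Cenpp, on the opposite strand, spans parts of this run and was at 6.57 ± 0.596 CPM in RFP- MHCIIhi and 2.56 ± 1.06 in RFP- MHCIIlo; its part in the counts of Aspn was not tested, since the strand setting of the counting is not given in the sources used here. Podn (chromosome 4, 108014791 to 108096445) overlaps Scp2 on the same strand. Scp2 was at 15.7 ± 0.591 CPM in RFP- MHCIIhi and 15.2 ± 1.26 in RFP- MHCIIlo. It was higher in RFP+ MHCIIhi and RFP+ MHCIIlo, at 25.25 ± 1.079 and 24.27 ± 2.797 CPM. The part of Scp2 in the counts of Podn was not tested. Bgn lies on chromosome X at 73483602 to 73495933.

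**Figure D4:**
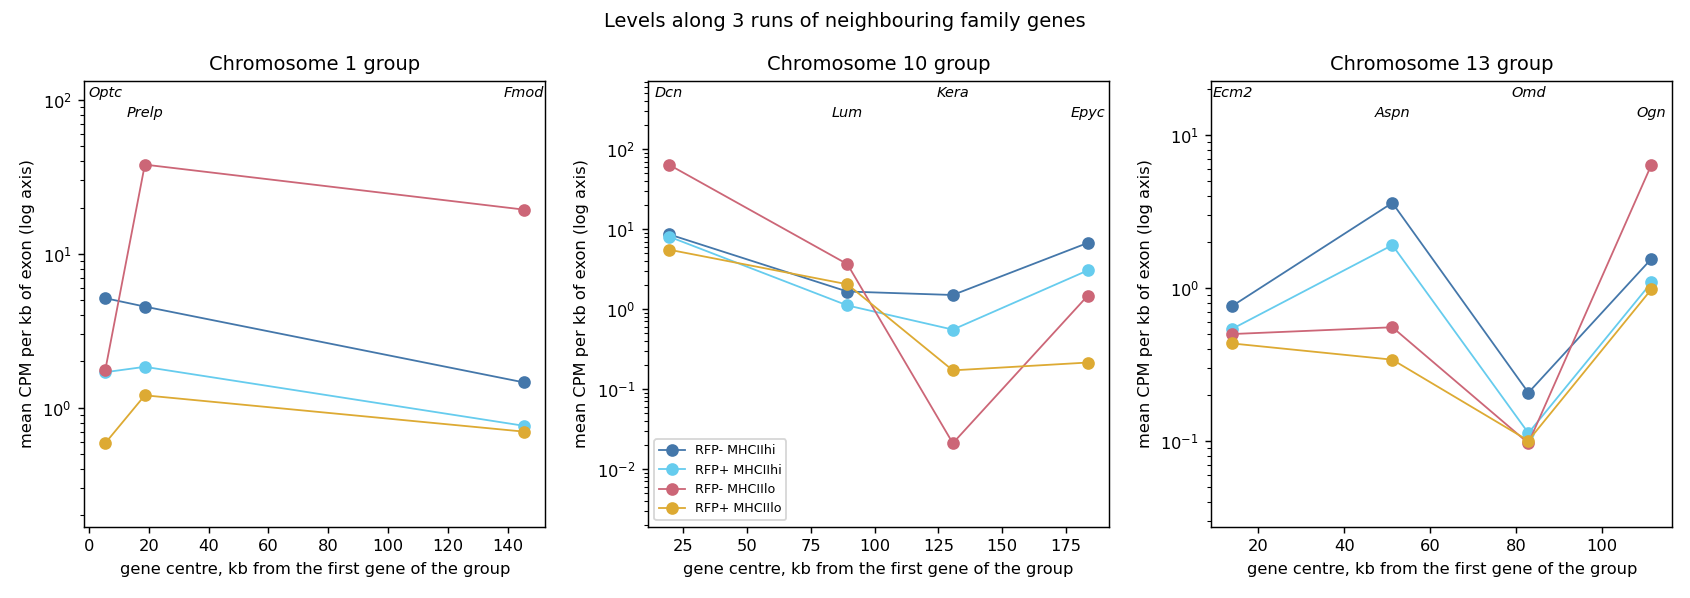
Mean CPM per kb of exon (vertical axes, log scale) of neighbouring family genes on chromosomes 1, 10 and 13 against the position of the gene's centre in kb from the start of the outermost gene, with a line for each population (means of 4 libraries). The RFP- MHCIIlo line is the highest at Prelp, Fmod, Dcn, Lum and Ogn and falls below RFP- MHCIIhi at Optc, Kera, Epyc, Ecm2, Aspn and Omd, Kera resting on 2 reads there.

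The 9 other family genes, Epyc, Kera, Optc, Nyx, Ecm2, Tsku, Chad, Chadl and Podnl1, were all tested and went both ways. Over all genes tested, 22.7% were called lower and 28.9% higher in RFP+ MHCIIlo against RFP- MHCIIlo. Epyc, Optc and Tsku, 3 of the 9, fell in RFP+ MHCIIlo against RFP- MHCIIlo, by 2.73, 1.60 and 0.94 on the log2 scale (edgeR adjusted p = 3.6e-07, 2e-05 and 1.4e-05), each without overlap between libraries. The difference of Epyc was -3.34 without RFP+ MHCIIlo replicate 3. Tsku, encoding tsukushi, was at 9.31 ± 1.96 CPM against 17.9 ± 2.38 (n = 4 each). Kera and Nyx passed as higher (adjusted p = 0.025 for both), with overlapping libraries, on 16 against 2 reads for Kera and 46 against 16 for Nyx. Both calls were lost without RFP+ MHCIIlo replicate 4 and with limma-voom, among others. In RFP- MHCIIlo against RFP- MHCIIhi, Tsku, Chad and Chadl were called higher and Epyc, Kera and Optc lower, 3 of 9 in each direction, a share near the 33.5% and 35.6% of all genes. The call of Chad (0.66) was lost in 8 of 22 alternatives (0.28 without RFP- MHCIIlo replicate 1, adjusted p 0.014 to 0.35 over the alternatives) and that of Chadl (0.86) in 4 (adjusted p 0.016 to 0.096).

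Collagens that these proteoglycans bind were examined next, from a list of 14. In RFP+ MHCIIlo against RFP- MHCIIlo 11 fell, Col5a3 rose (log2 difference 0.86, edgeR adjusted p = 0.00067) and 2 did not pass, with a median of -2.05 beside 0.07 over all genes. Called lower in that comparison were 22.7% of all genes, and called higher 28.9%. Col6a2, a chain of the microfibrillar collagen VI, fell from 315 to 41.2 CPM (log2 difference -2.93, SE 0.11, edgeR adjusted p = 1.5e-15). The chain of the fibril-surface collagen XII, Col12a1, fell from 261 to 32.0 CPM (-3.02, adjusted p = 6.5e-16), and the fibril-forming Col5a2 from 33.6 to 4.15 CPM (-2.96, adjusted p = 7.1e-10). Col1a1 and Col3a1 fell by 1.85 and 2.16 on the log2 scale (adjusted p = 6e-05 and 4.8e-07). Across the gate among RFP- cells the list was mixed, with 5 of 14 higher in MHCIIlo, such as Col6a2 (4.58) and Col3a1 (2.64), and 4 lower, beside 33.5% of all genes called higher and 35.6% lower. The RFP difference of Col6a2 lay lower in MHCIIlo than in MHCIIhi (log2 gap -3.35, edgeR adjusted p = 1.1e-12). Col6a2 was named for its large difference between the MHCIIlo populations, which is a term of this gap. Such a gap was called with a positive sign for 17.5% and a negative sign for 16.6% of all genes.

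Of 26 genes for chondroitin and dermatan sulfate synthesis, the chains of decorin and biglycan, 15 fell, 3 rose (Fam20b, Papss2 and Slc26a2) and 8 did not pass in RFP+ MHCIIlo against RFP- MHCIIlo, with a median of -0.68. Dse, the epimerase that turns chondroitin into dermatan sulfate, fell from 12.1 to 2.75 CPM (log2 difference -2.18, SE 0.24, edgeR adjusted p = 6.5e-08). Xylt1, which starts the chain on the core protein, fell from 56.5 to 15.6 CPM (-1.87, adjusted p = 5.8e-11), and the dermatan sulfotransferase Chst14 from 6.01 to 2.03 CPM (-1.59, adjusted p = 0.00048) with overlapping libraries. Slc26a2, the sulfate transporter, rose by 0.77 on the log2 scale (adjusted p = 8.1e-08). For keratan sulfate, the chain of fibromodulin and lumican, 3 of 7 genes fell and 2 rose, with a positive median of 0.40. Of all genes, 22.7% were called lower and 28.9% higher in this comparison. Chst2 fell from 106 to 51.2 CPM (-1.05, adjusted p = 6.7e-08) and B4galt4 from 17.1 to 7.41 CPM (-1.19, adjusted p = 1e-05), while B4galt1 rose from 57.7 to 75.8 CPM (0.40, adjusted p = 0.00096).

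Growth factors and receptors known to bind these proteins gave 10 of 13 lower, Tgfb2 higher and 2 not passing in RFP+ MHCIIlo against RFP- MHCIIlo, with a median of -0.95. The TGF-beta receptors Tgfbr2 and Tgfbr3 fell from 67.5 to 15.1 CPM (log2 difference -2.15, edgeR adjusted p = 1e-12) and from 89.8 to 29.2 CPM (-1.62, adjusted p = 4.6e-12). Egfr, a receptor that decorin binds, fell from 237 to 92.2 CPM (-1.36, adjusted p = 2.7e-12). Tgfb1 did not pass, at 5.73 against 7.59 CPM (-0.40, edgeR adjusted p = 0.057), but was called lower in 10 of 22 alternatives, DESeq2 among them (adjusted p 0.02 to 0.49 over the alternatives). Among RFP- cells 10 of the 13 rose and 2 fell in MHCIIlo against MHCIIhi. The shares of all genes called across this gate were 33.5% higher and 35.6% lower. Between the MHCIIlo populations 22.7% of all genes were called lower and 28.9% higher.

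Proteases that cut these proteins gave 9 of 11 lower and 2 not passing in RFP+ MHCIIlo against RFP- MHCIIlo, with a median of -1.94. In this comparison 22.7% of all genes were called lower and 28.9% higher, with a median of 0.07. Adamts1 fell from 34.8 to 5.72 CPM (log2 difference -2.61, edgeR adjusted p = 4.6e-12), the gelatinase Mmp9 from 66.5 to 12.7 CPM (-2.40, adjusted p = 1.1e-12), and Adamts5 from 11.7 to 2.53 CPM (-2.16, adjusted p = 4.3e-05). Bmp1, which trims the propeptides of biglycan and of procollagens, fell from 33.4 to 11.1 CPM (-1.58, adjusted p = 8.5e-12). Of 23 other proteoglycan core proteins 13 fell and 6 rose, with a median of -0.80. Those that fell included perlecan (Hspg2, -1.49, adjusted p = 3.3e-12), syndecan 3 (Sdc3, -2.09, adjusted p = 2.8e-13) and versican (Vcan, -0.80, adjusted p = 6.3e-05). Among those that rose, Sdc1, the syndecan typical of epithelia, went from 51.0 to 91.4 CPM (0.84, adjusted p = 8.2e-07) and Ncan, the neural proteoglycan neurocan, from 2.64 to 8.99 CPM (1.73, adjusted p = 3e-06); both were picked after their values were seen.

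Markers of other cell types went both ways between the MHCIIlo populations. More of the fibroblast, mesothelial, pericyte and endothelial markers fell than rose, while 22.7% of all genes were called lower and 28.9% higher. Of 12 tested fibroblast markers 10 fell in RFP+ MHCIIlo against RFP- MHCIIlo and Fap rose, and the summed level of the list was 280.4 to 390.4 CPM in RFP- MHCIIlo, 69.2 to 121 in RFP+ MHCIIlo, 115 to 120 in RFP- MHCIIhi and 106 to 118 in RFP+ MHCIIhi, with reads for 12 or 13 of its 13 genes in every library. Pdgfra, the defining fibroblast gene, was low everywhere, at 2.93 to 7.33 CPM in RFP- MHCIIlo and 2.32 to 3.98 in RFP+ MHCIIlo (log2 difference -0.74, edgeR adjusted p = 0.022, and lost with limma-voom and without RFP- MHCIIlo replicate 1 or 3 or RFP+ MHCIIlo replicate 2). Of 9 mesothelial markers 7 fell, Upk3b from 62.8 to 1.95 CPM (-4.96, adjusted p = 8e-09, and -6.13 without RFP+ MHCIIlo replicate 3), but Msln did not pass, at 352 and 362 CPM. The mesothelial sum was 440.4 to 658 CPM in RFP- MHCIIlo, 318 to 401 in RFP+ MHCIIlo, 107 to 115 in RFP- MHCIIhi and 177 to 186 in RFP+ MHCIIhi. Of 10 pericyte and smooth muscle markers 7 fell, with sums of 954 to 1166 CPM against 324 to 435. Their sums were 706 to 769 CPM in RFP- MHCIIhi and 857 to 882 in RFP+ MHCIIhi. Rgs5, the defining pericyte gene, was highest in RFP+ MHCIIhi, at 664 to 684 CPM, beside 462 to 556 in RFP- MHCIIlo. Of 10 endothelial markers 7 fell and 2 rose, with overlapping sums of 74.4 to 109.9 CPM against 69.7 to 82.0. Endothelial sums were 59.0 to 64.0 CPM in RFP- MHCIIhi and 54.9 to 60.5 in RFP+ MHCIIhi. The part of such cells in the levels of the proteoglycan genes was not tested.

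Epithelial genes also differed between the MHCIIlo populations. Krt14 and Trp63, which mark basal epithelial cells, and Pdpn, which encodes podoplanin, fell in RFP+ MHCIIlo by 2.17, 1.71 and 2.94 on the log2 scale (edgeR adjusted p = 2.2e-13, 6.9e-14 and 2.2e-14). Their levels in RFP- MHCIIlo were 437, 381 and 65.4 CPM. Of the 13 epithelial markers 7 fell and 4 rose, and Epcam was among those that rose (0.35, edgeR adjusted p = 0.00045). For this list and those that follow, the shares of all genes were 22.7% called lower and 28.9% called higher. Of 3 parathyroid markers, Pth and Gcm2 fell and Casr rose, Pth ranging from 187 to 660 CPM over the RFP- MHCIIlo libraries. Of 10 blood cell markers 6 rose, and only 2 passed without RFP+ MHCIIlo replicate 3, 3 without RFP- MHCIIlo replicate 4 and 2 with limma-voom. Of 6 Schwann cell markers 2 rose and 1 fell. Sox10 (Schwann cells) and Gcm2 (parathyroid) were at 0 in RFP+ MHCIIlo replicate 1, as their lowest value.

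Within RFP- MHCIIlo the proteoglycan genes did not peak in the same library. Replicate 3 was the highest for Dcn (1.46 times the mean of the 4), Bgn (1.31), Podn (1.305) and Ogn (1.22). It was also the highest for Upk3b (1.96), Wt1 (1.84) and the fibroblast (1.23), mesothelial (1.25) and pericyte (1.11) sums. Replicate 1 was the highest for Pdgfra (1.29), Cdh5 (1.29), Pth (1.545) and the endothelial sum (1.20), and replicate 2 for Aspn (1.30). Replicate 4 was the highest for Prelp (1.23), Fmod (1.21) and Lum (1.27), and there Upk3b, Wt1 and Pdgfra were at 0.643, 0.536 and 0.514 times their means. Epcam varied less, from 0.897 to 1.06. Within RFP+ MHCIIlo, replicate 4 was the highest for Dcn (1.41), Bgn (1.60), Lum (2.32), Ogn (1.51) and Aspn (2.27) and for the fibroblast sum (1.34). Replicate 3 was the highest for Prelp (1.46), Fmod (1.44) and Podn (1.485). Among RFP+ MHCIIlo markers, Upk3b was highest in replicate 3 (2.77, and 0.936 in replicate 4) and Wt1 in replicate 4 (1.51). Cdh5 (1.57) and Pth (3.82) were highest in replicate 3 and Pdgfra (1.19) in replicate 4, where Cdh5 was lowest (0.114). Thus Upk3b peaked with Dcn, Bgn, Ogn and Podn in RFP- MHCIIlo and with Prelp, Fmod and Podn in RFP+ MHCIIlo. For Podn, RFP- MHCIIlo replicate 1 was nearly as high (1.295).

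**Figure D5:**
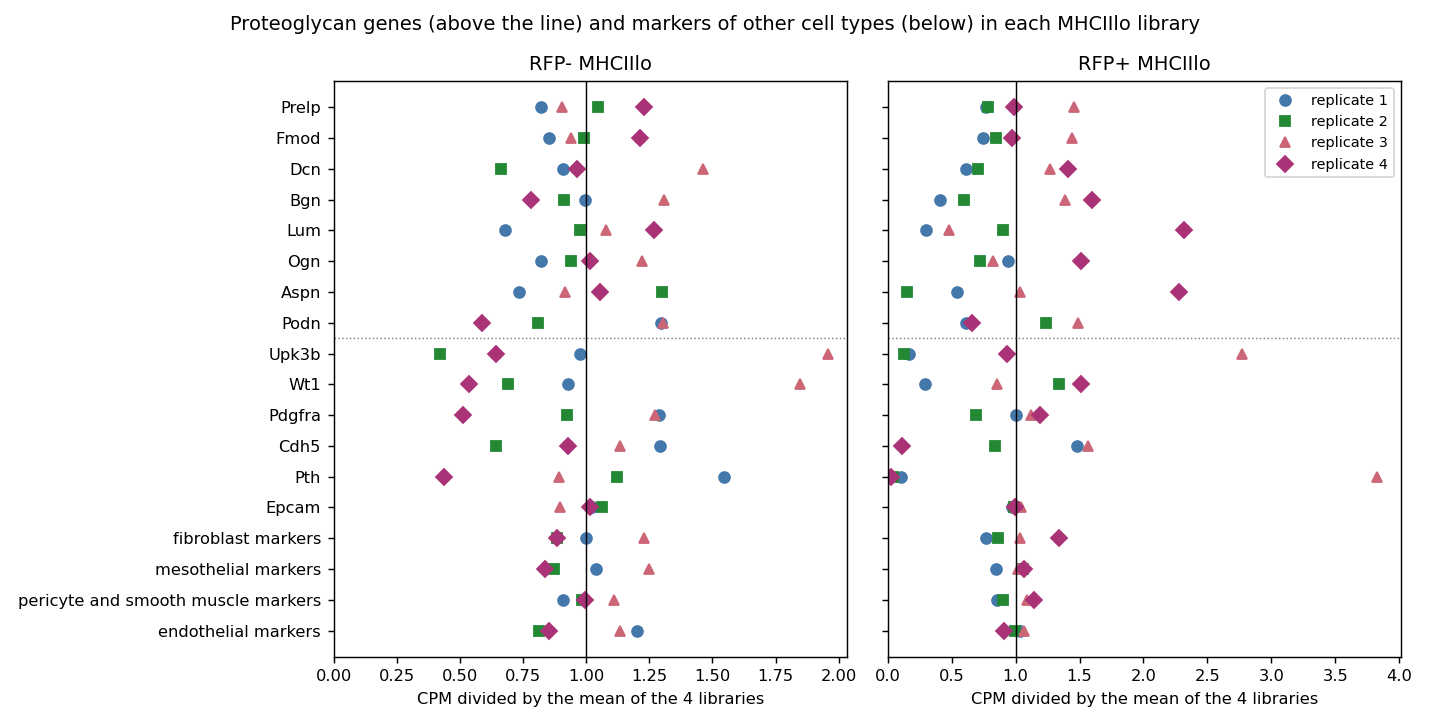
CPM of each MHCIIlo library divided by the mean of the 4 libraries of its population (horizontal axes, linear), for 8 proteoglycan genes above the dotted line and marker genes or summed marker lists below it. In RFP- MHCIIlo, replicate 3 is highest for Dcn, Bgn, Ogn and, by little, Podn, as it is for Upk3b and Wt1. Replicate 4 is highest there for Prelp and Fmod. Pdgfra, Cdh5, Pth and the endothelial sum are highest in replicate 1 of that population. In RFP+ MHCIIlo, replicate 3 is highest for Upk3b, Prelp, Fmod and Podn and replicate 4 for Wt1, Dcn, Bgn and Ogn.

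Over the 16 libraries, Pearson correlations of log2 CPM were 0.98 between Prelp and Fmod, 0.97 between Dcn and Ogn and 0.96 between Prelp and Ogn. Aspn was at -0.002 with Prelp and -0.67 with Podn. These 16 points share the differences between the 4 populations, which set most of each value. Among 13262 protein-coding genes outside the set, those most like Prelp were Oat (0.995), Hif1a (0.987) and Nxn (0.985), those most like Fmod were Limch1 (0.987), Hif1a (0.985) and Fbn1 (0.983), and those most like Dcn were Col4a1 (0.985), Cav1 (0.982) and Fbn1 (0.977). Bgn was most like Osr1, Col5a1 and Tmem119 (0.962 to 0.963), Ogn most like Fbn1, Rab34 and Col4a1 (0.975 to 0.981), and Aspn most like Rhot1, Ptpn21 and Chrng (0.96 to 0.982). For Lum the closest were Tmem8b, Dhx36 and Ube2d1 (0.883 to 0.894).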

How the data were processed

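RNA sequencing counts were available for 16 libraries of 4 sorted populations, 4 libraries each. The authors deposited raw counts per Ensembl gene for 43432 genes, and the submitters' processing notes name STAR, DESeq2 and GRCm38. Per the labels' protocols, cDNA of poly(A) RNA was amplified (NuGen Ovation V2) before Nextera XT library preparation. Counting tool, strand setting and annotation release: not given in the sources used here. GENCODE M21 gave a symbol to 42548 identifiers, and the other 884 held 0.1% of reads.

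The analysis used edgeR 4.0.16 under R 4.3.3. Low genes were removed with filterByExpr (minimum count 10, minimum total 15), and the rest were scaled by TMM and fitted by quasi-likelihood with a mean per population over all 16 libraries. Benjamini-Hochberg adjustment of p-values ran over 19617 genes within each comparison (threshold 0.05). They measure the spread between pools of 12 thymi. CPM are TMM-scaled, and log2 CPM used a prior count of 2. The fit was tested on simulated data. Counting limits precision in the genes with few reads, as given beside them. Libraries of a population were checked and none were copies of each other. RFP+ MHCIIlo replicate 4 was unlike its replicates over all tested genes. Its counts differed from theirs by a chi-square per degree of freedom of 24.97 to 37.16, beside 4.64 to 10.76 among replicates 1 to 3. It was also the deepest of its population, at 12.93 M reads, with reads for 28249 genes, beside 23569 to 25408 in replicates 1 to 3.

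The 9 genes, the gene lists and the naming rule were chosen with earlier results of these data known, so the 9 genes carry no tests. Named from each list were its defining genes and the 3 called genes with the largest log2 difference between the MHCIIlo populations and at least 5 CPM in the higher population. Genes alike were the 3 with the highest Pearson correlation for each member. Those for Podn are not reported here. Other genes were named after their values were seen. Alternatives were DESeq2 1.42.0 (size factors and Wald test), limma-voom (limma 3.58.1), no filter on low counts, a replicate block, and leaving out libraries. Promoter windows and motif shares come from RefSeq (GRCm38.p6).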

Additional observations from a re-analysis of the deposited data

Results flagged for a closer look

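In Bgn, MHCIIlo was above MHCIIhi among RFP- cells and below it among RFP+ cells, with no overlap between libraries in either case. The gap between the RFP differences of the 2 gates was -1.81 on the log2 scale, and this difference was not tested, since the gene was chosen on these libraries.

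Of 280 groups of 4 libraries checked, 11 held a library far from the other 3, where chance gives about 1 in 20, and none of the 36 groups of the 9 proteoglycan genes did. High libraries were RFP+ MHCIIlo replicate 4 for B4galt1 (80.1 CPM, others 73.6 to 74.7), RFP+ MHCIIhi replicate 4 for Cd8a (15.7, others 7.99 to 9.04), RFP+ MHCIIhi replicate 1 and RFP+ MHCIIlo replicate 3 for Chad (6.86 and 9.76), RFP- MHCIIlo replicate 3 for Nkain4 (21.1, others 9.89 to 11.7), RFP- MHCIIhi replicate 4 for Pth (15.5, others 13.5 to 13.8), RFP+ MHCIIlo replicate 3 for Pth (32.2, others 0.249 to 0.864) and RFP+ MHCIIlo replicate 3 for Ptprc (45.3, others 32.3 to 34.0). Low libraries were RFP- MHCIIlo replicate 1 for Dse (10.6 CPM), RFP- MHCIIhi replicate 3 for Egfr (54.8 CPM) and RFP+ MHCIIhi replicate 1 for Foxd3 (7.25 CPM).

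For the genes below the RFP difference in MHCIIlo differed from that in MHCIIhi (edgeR's quasi-likelihood test of the difference, adjusted p under the threshold). Most were named for a large RFP difference in MHCIIlo, which is a term of this gap, so their number is not set beside that of all genes. Among collagens and matrix genes the gap on the log2 scale was -3.35 for Col6a2, -3.05 for Lox, -2.03 for Fbn1, -1.95 for Col12a1, -1.60 for Col3a1, -1.47 for Col5a2 and -1.65 for Hspg2. In the synthesis and core protein lists it was -2.26 for Dse, -1.82 for Xylt1, -0.89 for B4galt4, -1.89 for Gpc2 and -1.66 for Sdc3. Receptors and proteases gave -1.40 for Tgfbr2, -1.57 for Tgfbr3, -1.21 for Egfr, -2.08 for Adamts1, -1.51 for Adamts5, -0.75 for Bmp1 and -1.67 for Mmp9, where the call of Adamts5 was lost in 10 of 22 alternatives, with DESeq2 and limma-voom among them (adjusted p 0.00051 to 0.1). Other family genes gave -1.59 for Epyc (-2.20 without RFP+ MHCIIlo replicate 3), -0.83 for Tsku and 4.36 for Kera, the last on very few reads (3.54 without RFP+ MHCIIlo replicate 4).

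Markers gave -4.05 for Upk3b, -3.06 for Lrrn4, -1.93 for Nkain4, -2.63 for Prrx1, -2.37 for Acta2, -2.28 for Des, -2.81 for Tagln, -1.88 for Rgs5, -3.21 for Cdh5, -3.37 for Kdr, -1.52 for Pecam1, -0.32 for Mbp, -5.67 for Pth and -0.36 for Casr. The calls of Casr and Mbp were lost in 12 and 11 of 22 alternatives (adjusted p 0.022 to 0.11 and 0.017 to 0.23). Without RFP+ MHCIIlo replicate 3 the gap was -9.82 for Pth and -5.22 for Upk3b. The epithelial genes Krt14, Trp63 and Pdpn gave -2.34, -1.86 and -2.24. The blood cell genes were on the other side, at 3.12 for Cd3e, 2.44 for Cd4, 3.63 for Cd8a and 2.24 for Ptprc. The adjusted p-values reach from 1.1e-12 for Col6a2 to 0.046 for Mbp.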

How the results depend on the processing

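The differences of the 8 fitted proteoglycan genes over 4 comparisons were recomputed under 22 alternatives, and all 704 values stayed within the SD between libraries. For the alternatives that leave out libraries this was nearly fixed in advance, since an outlying library also widens that SD. The count is therefore no measure of stability. Leaving out RFP+ MHCIIlo replicate 4 moved those of Lum and Aspn by over 1.5-fold, as given above, and leaving out replicates 1 and 4 together gave -1.40 and -1.38 against RFP- MHCIIlo. Small differences with overlapping libraries turned sign, Fmod between the RFP+ populations (0.02 to 0.11, without RFP+ MHCIIhi replicate 1, RFP+ MHCIIlo replicate 1, or RFP+ MHCIIlo replicates 1 and 4) and Podn between the MHCIIhi populations (0.01 without RFP+ MHCIIhi replicate 4). Of the 9 other family genes, 2 were called higher in RFP+ MHCIIlo against RFP- MHCIIlo (edgeR), 0 with limma-voom (0 at an unadjusted p under 0.05), 0 without RFP+ MHCIIlo replicates 1 and 4 (1 unadjusted), and 0 to 2 when 1 library was left out, the 0 without RFP+ MHCIIlo replicate 4 (0 unadjusted). DESeq2 called 2. Nyx turned to -0.07 without RFP+ MHCIIlo replicates 1 and 4 (adjusted p = 0.95). The count of collagens higher was 1 to 2 when leaving out 1 library, 2 without RFP+ MHCIIlo replicate 1. The causes were not tested. Over all genes, every count of calls stayed within 1.5-fold. Of 6710 values for 61 other named genes, 141 lost and 121 gained a call.

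Replicate numbers are shared between populations, but the labels do not say that they pair pools. Deviations of same-numbered libraries correlated at -0.019 to 0.129 (4 of 24 pairs above 0.1) and those of other pairs at -0.121 to 0.079. The best of 4 possible partners had the same number in 35 of 48 cases, a hint from the data, not the design, that the numbers may pair pools. The populations were fitted without pairs because the labels do not give them, and the replicate block was kept as an alternative. With the replicate block 10223 genes were called between the MHCIIlo populations, beside 10129 without it.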
